A study of Mus musculus with 12 samples.

Results

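The genes described here encode the machinery that carries newly made secretory proteins into the endoplasmic reticulum (ER) and between the ER and the Golgi apparatus. They were chosen by symbol from the deposited table of all genes: 44 genes of 50600 with counts, 1 row per gene identifier. All 44 passed the filter on low counts, which left 24660 genes for testing. RNA was sequenced from the thoracic aorta, down to the diaphragm from the left subclavian artery, of C57BL/6J mice that carried 1 working copy of the elastin gene (Elastin +/-, written Eln+/- below). Every group had this genotype, so no wild-type aorta was compared. Controls had ordinary water. The on-drug group was given minoxidil, an opener of ATP-sensitive potassium channels used to relax blood vessels, through the water for 2 weeks from 2.5 months of age. The off-drug group was given the same course and then drug-free water for 1 week. Each group had 4 libraries, the labelled age was 3 months throughout, and this schedule puts the off-drug group about 1 week later in age.

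A protein bound for secretion is recognised by its signal peptide as it leaves the ribosome. The signal recognition particle binds that peptide and docks the ribosome at the Sec61 channel, through which the chain enters the ER, helped by the translocon-associated protein (TRAP) complex and trimmed by signal peptidase. Folded cargo leaves the ER in vesicles coated with COPII. Escaped ER proteins and recycling receptors return in vesicles coated with COPI, and KDEL receptors are the receptors that catch escaped ER chaperones. In the arterial wall, smooth muscle cells and fibroblasts use this route to export collagens, elastin and other matrix proteins.

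The libraries held between 41524501 and 109423243 counts, and all pairs of libraries within a group differed by more than sampling noise. Contractile smooth muscle markers, the defining genes of the aortic media, were abundant, with 8 of 8 detected in all libraries and a summed level of 15972 to 18472 CPM (read counts divided by scaled library size) in control aortas, 18208 to 20897 on drug and 17519.9 to 20044 off drug. Eln itself, present in the same heterozygous state in every group and a cargo of this route, was at 370 to 621 CPM in control aortas, 601 to 1091 on drug and 209 to 268 off drug. The clock gene Arntl was at 17.2 ± 3.31 CPM in control aortas (mean ± SD, n = 4 here and below), 9.25 ± 3.22 on drug and 1.09 ± 0.263 off drug. The labels give no hour of collection, and the part of this difference in the results below was not tested. P-values weigh a difference between groups against the spread between samples within groups, estimated from all 3 groups together. In bulk tissue, fewer cells of a type and less RNA per cell cannot be told apart.

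In controls the genes spanned a wide range of abundance. Levels are compared between genes after division by exon length, as CPM per kb, except where a rank by CPM is named. Tmed2, a p24-family protein of transport vesicles, was highest at 121 ± 8.46 CPM per kb, followed by the KDEL receptor gene Kdelr2 at 66.3 ± 2.13 and Sar1a, the small GTPase that starts COPII assembly, at 61.2 ± 3.93. At the other end stood Srp19, which helps assemble the signal recognition particle, at 1.53 ± 0.170 CPM per kb, and the COPII cargo adaptor Sec24a at 1.96 ± 0.295. The 7 COPI subunit genes lay between 10.9 ± 0.428 CPM per kb (Arcn1, the delta subunit) and 29.7 ± 2.08 CPM per kb (Copb1, the beta subunit). The 10 COPII genes ran from Sec24a to Sar1a at 61.2 ± 3.93 CPM per kb. Exon length here is the length of all annotated exons of a gene joined, which overstates the length of the transcripts in use, so these orders are approximate.

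**Figure D1:**
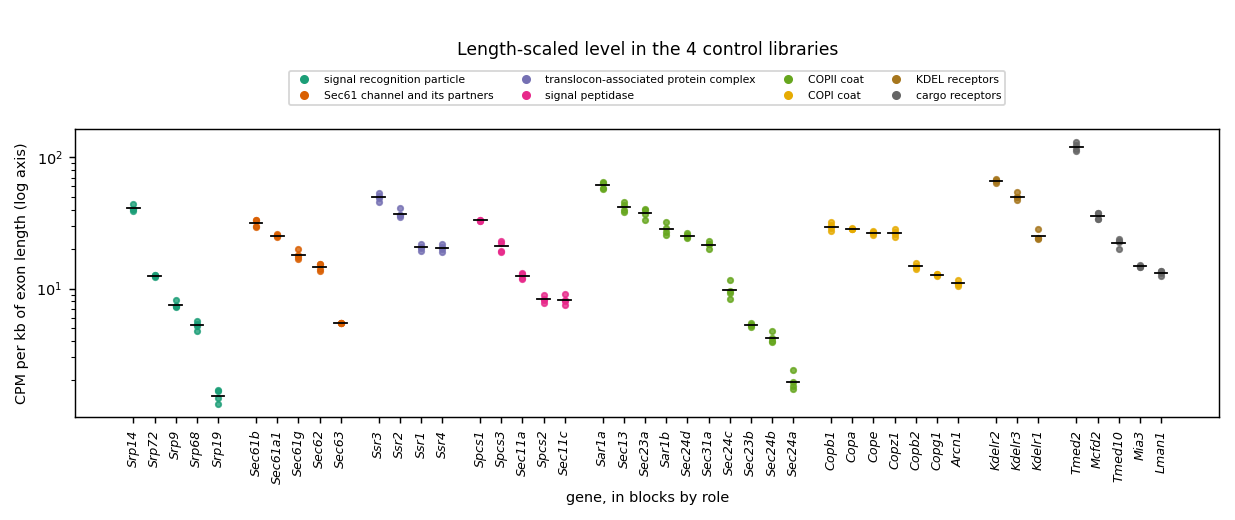
Level of each gene in the 4 control libraries as CPM per kb of exon length on a log axis, in blocks by role; points are libraries and the short line is their mean. Tmed2 stands highest at 121 ± 8.46 CPM per kb and Srp19 lowest at 1.53 ± 0.170.

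The first comparison asked what 2 weeks of minoxidil did to this machinery, the second how withdrawal for 1 week left it beside untreated mice, and the third how withdrawal compared with the end of treatment. The first pair shares the control libraries, and the third shares libraries with both. Tests were edgeR's quasi-likelihood tests with Benjamini-Hochberg adjustment over all 24660 genes, and a gene was called at an adjusted p below 0.05. Differences below are log2 fold changes, given ± their standard error (SE).

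On drug, 2 of the 44 genes were called higher and 0 lower, against 4.13% and 2.94% of all genes tested, or 7.07% in either direction. Both were subunits of the COPII coat, Sec24d and Sec31a. Among the 11900 genes at least as abundant as the lowest of the 44, 7.08% were higher and 4.99% lower. Here and below, that set has a floor at a mean log2 CPM of 2.51. It is not matched to the abundance of the other genes of the 44. At an unadjusted p below 0.05, 4 of the 44 were higher and 7 lower, and DESeq2 called 2 higher and 1 lower. Over all 48639 genes fitted by DESeq2, it called 1416 higher and 1326 lower. The share of all genes at an unadjusted p below 0.05 was not counted in any comparison. The median difference of the 44 genes was -0.01, and that of all genes 0.00. For 4 genes all on-drug libraries lay above all controls and for 3 below, where 6.3% and 6.01% of all genes did so. Leaving out single libraries changed the number called higher: it was 0 without control replicate 3, 0 with on-drug replicate 2 left out, 0 with on-drug replicate 3 left out and 1 with on-drug replicate 4 left out. Without control replicate 1, 2 genes were called lower. Without composition factors in the scaling, 72.8% of the calls over all genes were higher, in place of 58.4%.

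Off drug against control, 10 of the 44 genes were called lower and 0 higher, against 5.77% and 6.27% of all genes tested. Among the 11900 genes at least as abundant as the lowest of the 44, 9.13% were lower and 10.1% higher. The 10 genes were Kdelr3, Sec61g, Spcs3, Lman1, Copb1, Sec23a, Kdelr2, Sec24a, Sec61b and Sar1a, spread over 6 of the 8 roles. The median difference of the 44 was -0.12, against -0.01 for all genes, and 35 of the 44 differences were negative. For 15 genes all off-drug libraries lay below all controls, and for 0 above, where 7.73% and 9.2% of all genes did so. At an unadjusted p below 0.05 there were 22 lower and 1 higher (share of all genes not counted), and DESeq2 called 16 lower and 0 higher. Over all 48639 genes fitted by DESeq2, it called 1910 lower and 1862 higher. Leaving out 1 library gave 9 to 14 lower, and 0 higher except for Sec24c without control replicate 1. Without composition factors the median of the 44 was -0.06, against 0.05 for all genes. With that scaling 68.9% of the calls over all genes were higher, in place of 52.1%.

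Off drug against on drug, 7 of the 44 were called lower and 0 higher, against 6.92% and 5.44% of all genes tested. They were Kdelr3, Lman1, Kdelr2, Sec24d, Sar1a, Sec24b and Sec31a. Among the 11900 genes at least as abundant as the lowest of the 44, 10.3% were lower and 8.3% higher. The median difference of the 44 was -0.13, against 0.00 for all genes, and 38 of the 44 differences were negative. For 17 genes all off-drug libraries lay below all on-drug libraries, and for 0 above, where 9.37% and 9.44% of all genes did so. At an unadjusted p below 0.05 there were 23 lower and 0 higher (share of all genes not counted), and DESeq2 called 10 lower and 0 higher. Over all 48639 genes fitted by DESeq2, it called 2148 lower and 1739 higher. The number called lower was 3 on leaving out either on-drug replicate 2 or on-drug replicate 3, 4 on leaving out off-drug replicate 1 or off-drug replicate 4, and 2 on leaving out off-drug replicate 3. Against a minimum fold of 1.2, 0 genes were called on drug, while 1 (Kdelr3) was called lower off drug against control, and 0 were called in the third comparison.

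**Figure D2:**
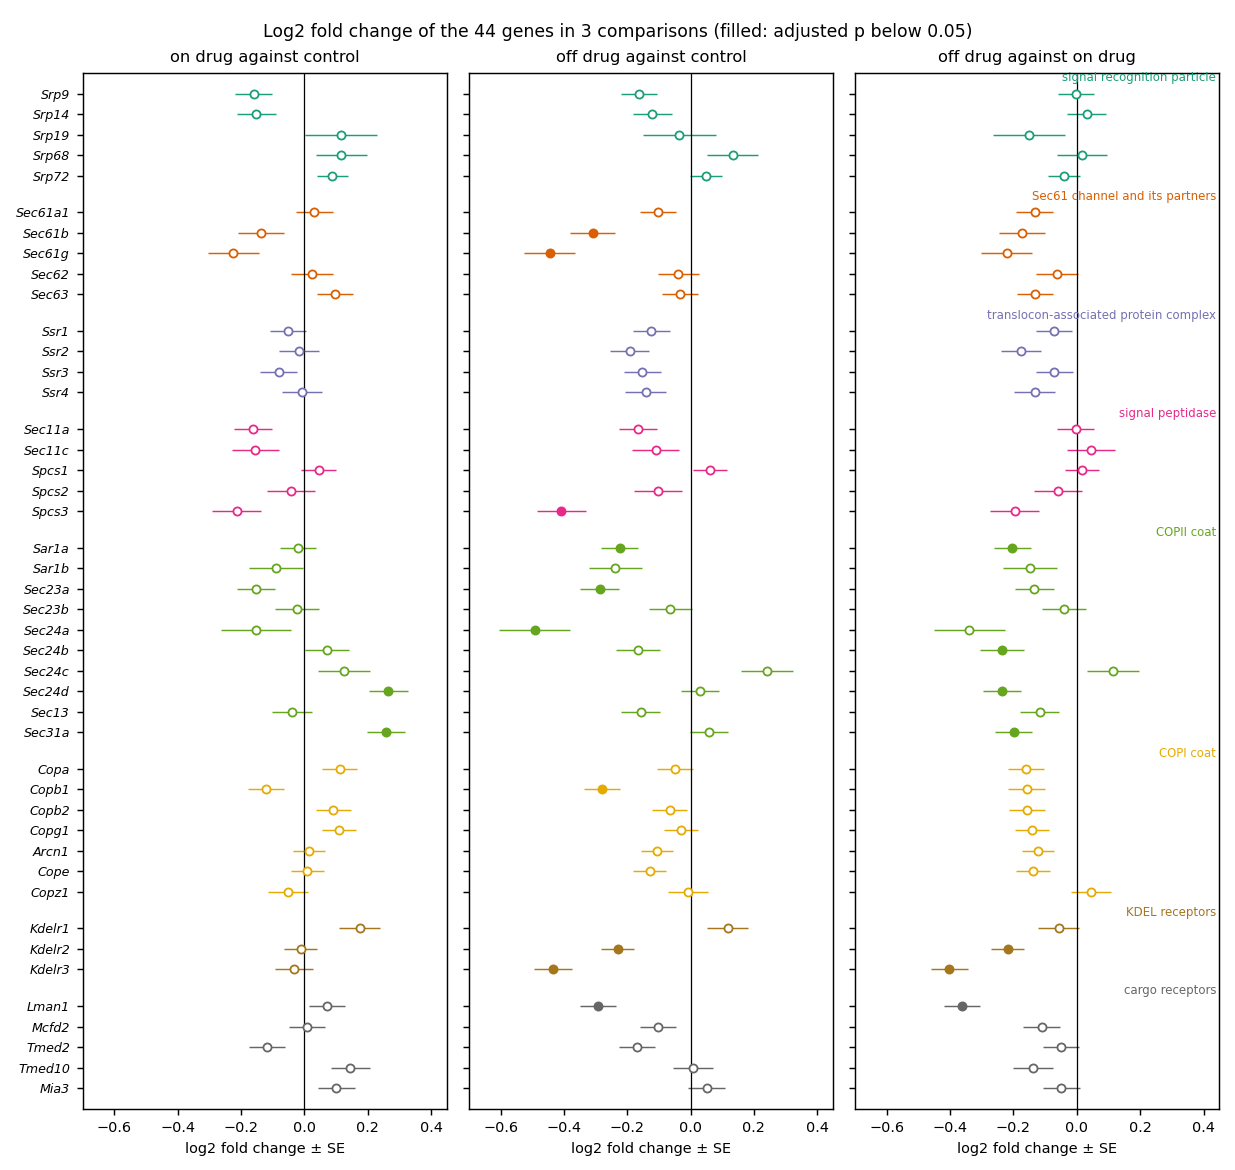
Log2 fold change with its SE for each of the 44 genes in the 3 comparisons, in blocks by role; filled points have an adjusted p below 0.05. In the middle panel 35 of 44 points lie left of 0, and the 10 filled ones all do.

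Added over the 44 genes, the level was 4188 ± 89.2 CPM in control aortas, 4209.5 ± 98.6 on drug and 3844 ± 76.0 off drug. The off-drug libraries (3772 to 3936 CPM) lay below all control (4092 to 4299.9 CPM) and all on-drug libraries (4107 to 4302 CPM). The off-drug mean was the lowest of the 3 groups for 32 genes, the control mean for 9 and the on-drug mean for 3. This order was not counted over all genes, so no share stands beside it. Within groups the libraries also differed. Control replicate 3 was the highest control for 20 of the 44 genes and control replicate 1 the lowest for 20. The heat shock gene Hspa1a was at 3415 CPM in control replicate 3 and 1232 to 1691 CPM in the other controls, against 254 to 508 CPM on drug and 660.1 to 1190.2 CPM off drug. Control replicate 3 is also a library without which both on-drug calls were lost, and the part of Hspa1a's difference in these results was not tested. On-drug replicates 1 and 4 were the lowest of their group for 18 and 21 genes. With control replicate 3 and on-drug replicate 1 both left out, the counts were 2 higher on drug, 9 lower off drug against control and 8 lower in the third comparison.

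**Figure D3:**
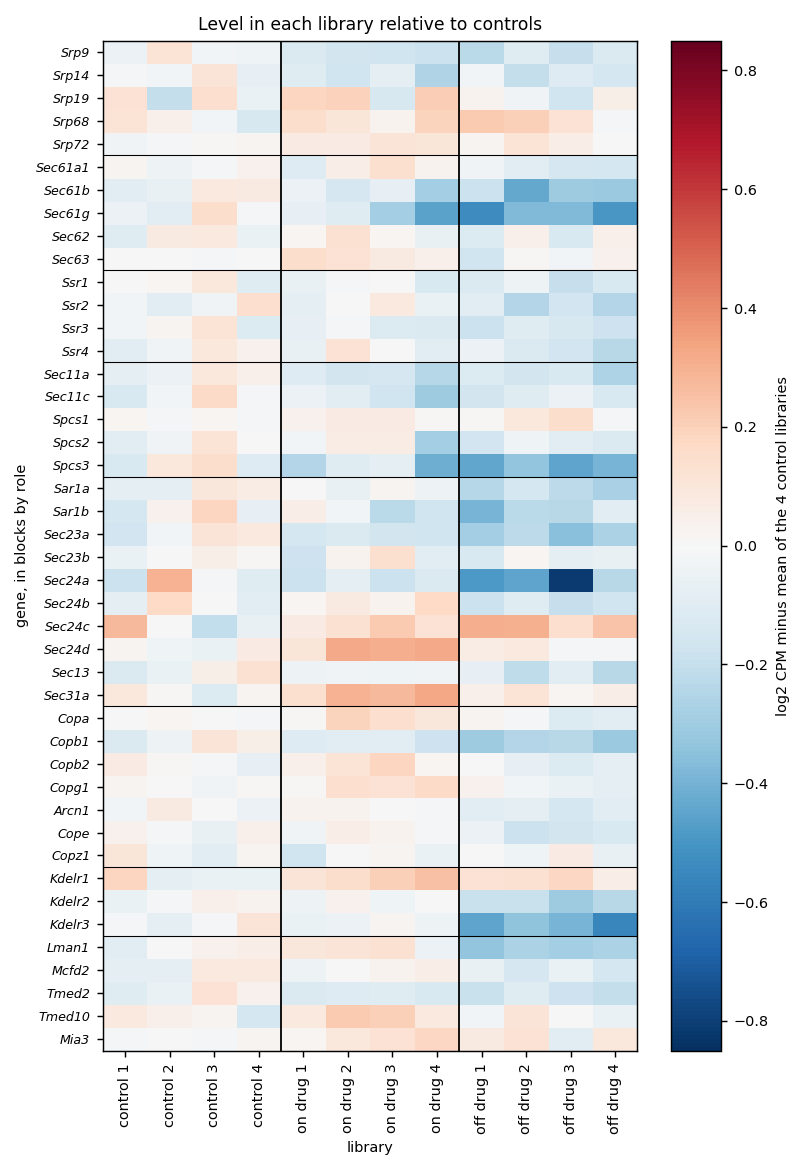
Log2 CPM of each gene in each of the 12 libraries minus the mean of the 4 control libraries, in blocks by role, with red above and blue below the controls. Most genes are blue in the off-drug columns, and Sec24d and Sec31a are red in the on-drug columns.

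After several of the genes were found low together off drug, the promoters of the 44 were searched for elements that bind factors of the unfolded protein response. The part of these factors in the differences was not tested. RefSeq promoter windows (GRCm38.p6, 250 bases before to 50 after the annotated start) were matched for 34 of the 44 genes, in 36 windows. Both strands were searched for TGACGTGG, the core of the unfolded protein response element bound by XBP1 and ATF6. It occurred in 5 of the 36 windows, from 5 of the 34 genes (14.7% of genes), and in 0.676% of all 32851 windows. The 5 genes were Kdelr3, Copb1, Sec23a, Sec24d and Copb2. Of these, Kdelr3, Copb1 and Sec23a were among the 7 genes called lower off drug against control that had a window. Sec24d was called on drug, and Copb2 in 0 comparisons. The stretches are shown 5′ to 3′ on the strand of the gene, with the element in capitals, because the same letters recur close to an annotated start of each gene:
Kdelr3, chr15:79516288-79516407, plus strand, the 120 bases before the start: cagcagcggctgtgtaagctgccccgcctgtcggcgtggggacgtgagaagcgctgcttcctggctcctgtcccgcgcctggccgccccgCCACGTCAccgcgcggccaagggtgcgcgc
Copb1, chr7:114254690-114254719, minus strand, 30 bases around the element: cccgcccccttCCACGTCAgccaaggactt
Sec24d, chr3:123267459-123267488, plus strand, 30 bases around the element: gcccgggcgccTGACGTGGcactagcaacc
Sec23a, chr12:59011993-59012022, minus strand, 30 bases around the element: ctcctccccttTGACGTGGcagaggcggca
Copb2, chr9:98563713-98563742, plus strand, 30 bases around the element: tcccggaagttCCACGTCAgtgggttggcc

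In Kdelr3 the element reads CCACGTCA, its reverse complement, at 30 to 23 bases before the start, and in Sec23a it reads forward at bases 7 to 14 after it. RefSeq and the authors' table give the same start for these genes. For the other 3 genes the authors' table starts the gene further out, by 31 bases for Copb1, 41 for Sec24d and 10 for Copb2. Counted from the RefSeq start, the element lies 28 to 21 bases before it in Copb1 (reverse complement), 26 to 19 before it in Sec24d (forward) and across it in Copb2 (reverse complement). Counted from the start in the authors' table, it lies inside the gene in all 3, at bases 4 to 11 in Copb1, 16 to 23 in Sec24d and 4 to 11 in Copb2. The longer ER stress response element, CCAAT and CCACG with 9 bases between, was in 0 of the 36 windows and 0.119% of all windows, and its variant, ATTGG and CCACG with 1 base between, in 0 and 0.0365%. The cyclic AMP element TGACGTCA, which shares TGACGT with the first motif, was in 1 window, that of Cope, and in 1.79% of all. The short stretch CCACG is part of both the first motif on its reverse strand and the longer element. It was in 22 of the 36 windows, from 21 of the 34 genes (61.8% of genes), and in 32.8% of all windows. The 36 windows had a median GC content of 59% against 52.7% over all windows, and no set matched in base composition was compared. A match gives the letters only and not binding.

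Of the 5 signal recognition particle genes, edgeR called 0 in each comparison. At an unadjusted p below 0.05 there were 2 on drug, 1 off drug against control and 0 in the third comparison (shares of all genes not counted). DESeq2 called 1, 1 and 0. Srp9 and Srp14 form the part of the particle that slows translation. Srp9 was at 40.4, 45.2, 41.1 and 40.7 CPM in control replicates 1 to 4, 38.4, 37.5, 37.1 and 36.8 on drug and 35.6, 39.0, 36.6 and 38.4 off drug. Both drug groups lay below all controls for this gene, with differences of -0.16 ± 0.06, adjusted p = 0.105 on drug and -0.16 ± 0.06, adjusted p = 0.0768 off drug. Control replicate 2, at 45.2 CPM, stood above the other controls. The gene passed in 2 of 24 other settings on drug and in 2 of 24 off drug, in both with DESeq2 and with the trend on exon length removed. About 14.1% of its exon bases are shared with an annotated processed pseudogene, and reads mapping to several places were counted for each. Its partner Srp14 had -0.15 on drug and -0.12 off drug. Srp19, Srp72 and Srp68, other protein subunits, had differences off drug against control of -0.04, 0.05 and 0.13.

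The Sec61 channel has a large pore subunit and a pair of small ones. Sec61g, the gamma subunit (ENSMUSG00000078974.10, chromosome 11, 16500530 to 16508484, minus strand, GRCm38), was at 42.9, 41.7, 49.3 and 44.1 CPM in control aortas, 42.2, 41.4, 36.3 and 32.4 on drug and 30.7, 34.2, 34.2 and 31.6 off drug. All off-drug values lay below all controls, and the on-drug values reached into both groups. Sec61g fell off drug against control (log2 fold change -0.45 ± 0.08, adjusted p = 0.00135). On drug its difference was -0.22 ± 0.08, adjusted p = 0.102. Sec61b, the beta subunit (ENSMUSG00000053317.11, chromosome 4, 47474658 to 47483242, plus strand), was at 37.3, 38.2, 42.2 and 42.1 CPM in control aortas, 38.6, 36.2, 37.9 and 32.7 on drug and 35.2, 29.5, 32.3 and 32.0 off drug. It fell off drug against control (-0.31 ± 0.07, adjusted p = 0.00833) and again its off-drug values lay below all controls. The pore subunit Sec61a1 was at 170.2 ± 4.18 CPM in control aortas, 174 ± 12.1 on drug and 158 ± 6.02 off drug, and its difference off drug against control was -0.10 ± 0.06, adjusted p = 0.283. The channel partners Sec62 and Sec63, which serve post-translational import, differed off drug by -0.04 and -0.03 and did not pass.

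The 4 TRAP genes had negative differences in all 3 comparisons, and 0 of 4 passed with edgeR. At an unadjusted p below 0.05 there were 0 on drug, 4 off drug against control and 2 in the third comparison (shares of all genes not counted). DESeq2 called 0, 2 and 0. Ssr2, the beta subunit, had the smallest p. It was at 68.0, 65.0, 67.9 and 76.3 CPM in control aortas, 65.4, 69.3, 73.1 and 66.4 on drug and 64.6, 58.1, 61.8 and 58.1 off drug. The off-drug values lay below all others, and the difference from controls was -0.19 ± 0.06, adjusted p = 0.0524. It passed in 5 of 24 other settings, 1 of which left out a library, control replicate 2 (0.04). Ssr1, Ssr3 and Ssr4, the other subunits, had off-drug differences of -0.12, -0.15 and -0.14. Summed over the 4 genes, TRAP stood at 511 to 564 CPM in control aortas, 491 to 534 on drug and 470.3 to 495 off drug.

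Signal peptidase cuts signal peptides inside the ER. Its subunit Spcs3 (ENSMUSG00000054408.9, chromosome 8, 54520433 to 54529998, minus strand) was at 66.3, 77.2, 80.4 and 67.4 CPM in control aortas, 60.9, 67.5, 68.5 and 54.5 on drug and 53.4, 57.5, 53.3 and 55.1 off drug. Spcs3 fell off drug against control (-0.41 ± 0.08, adjusted p = 0.0018), with all off-drug libraries below all controls. The on-drug libraries overlapped both other groups. The other subunits did not pass in any comparison. Spcs1 had a small positive difference off drug (0.06), while Spcs2 (-0.10) and the catalytic subunits Sec11a (-0.17 ± 0.06, adjusted p = 0.0749) and Sec11c (-0.11) had negative ones. Sec11a passed in 3 of 24 other settings, 1 of which left out a library, control replicate 1 (0.0426).

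The 10 COPII genes went in different directions. On drug, the cargo adaptor Sec24d (ENSMUSG00000039234.11, chromosome 3, 123267455 to 123365641, plus strand) and the outer coat subunit Sec31a (ENSMUSG00000035325.16, chromosome 5, 100361649 to 100416234, minus strand) rose, and off drug against on drug both fell. Off drug against control, the inner coat subunit Sec23a (ENSMUSG00000020986.13, chromosome 12, 58958383 to 59012017, minus strand), the adaptor Sec24a (ENSMUSG00000036391.16, chromosome 11, 51692264 to 51763634, minus strand) and the GTPase Sar1a (ENSMUSG00000020088.10, chromosome 10, 61680299 to 61693297, plus strand) fell.

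Sec24d selects cargo for COPII vesicles together with Sec23. It was at 163, 156, 153 and 168 CPM in control aortas, 172, 199.6, 198 and 200.4 on drug and 167, 169, 159 and 158 off drug. On-drug replicate 1, at 171.8 CPM, lay close to the highest control, and the other on-drug libraries lay higher, at 198 to 200.4 CPM. Sec24d rose on drug (0.27 ± 0.06, adjusted p = 0.0126) and fell off drug against on drug (-0.24 ± 0.06, adjusted p = 0.014), and off drug against control its difference was 0.03 ± 0.06, adjusted p = 0.809. The call on drug was lost, with the adjusted p in parentheses, on leaving out any 1 of control replicate 3 (0.0541), on-drug replicate 2 (0.0541) and on-drug replicate 3 (0.0592). The call off drug against on drug was lost on leaving out any 1 of on-drug replicate 2 (0.0633), on-drug replicate 3 (0.0547), off-drug replicate 3 (0.0592) and off-drug replicate 4 (0.0591).

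Sec31a, which with Sec13 builds the outer cage, was at 181, 171, 157 and 173 CPM in control aortas, 187, 209, 206 and 214 on drug and 176, 185, 173 and 178 off drug. All on-drug libraries were above all controls and all off-drug libraries. The rise on drug was 0.26 ± 0.06, adjusted p = 0.0136, the difference off drug against on drug -0.20 ± 0.06, adjusted p = 0.0327, and that off drug against control 0.06 ± 0.06, adjusted p = 0.6. The call on drug was lost on leaving out any 1 of control replicate 3 (0.0604), on-drug replicate 2 (0.0518), on-drug replicate 3 (0.0524) and on-drug replicate 4 (0.0531). That against on drug was lost on leaving out any 1 of on-drug replicate 2 (0.107), on-drug replicate 3 (0.0856), on-drug replicate 4 (0.101), off-drug replicate 1 (0.091), off-drug replicate 3 (0.107) and off-drug replicate 4 (0.0817), and without composition factors (0.115). Its cage partner Sec13 was at 133 ± 10.4 CPM in control aortas, 129 ± 0.573 on drug and 119 ± 6.85 off drug (-0.04 ± 0.06, adjusted p = 0.776 on drug).

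Sec23a activates the GTPase on the forming vesicle. It was at 162, 179, 196 and 192 CPM in control aortas, 164, 167, 163 and 162 on drug and 149, 156, 143 and 151 off drug. The off-drug libraries lay below all other libraries, and the on-drug libraries lay between 162 and 167 CPM, at the lower edge of the controls. The off-drug difference was -0.29 ± 0.06, adjusted p = 0.00442, and that on drug -0.15 ± 0.06, adjusted p = 0.137. About 8.91% of its exon bases overlap an annotated antisense gene, and the counting set no strand.

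Sec24a was at 18.3, 25.4, 20.6 and 19.3 CPM in control aortas, 18.3, 19.6, 18.2 and 19.0 on drug and 14.8, 15.2, 11.8 and 17.6 off drug. Control replicate 2 was high, and off-drug replicate 3 low. All off-drug values lay below all others. Sec24a fell off drug against control (-0.49 ± 0.11, adjusted p = 0.00767), which was the most negative difference among the 44 genes. Off drug against on drug the difference of -0.34 ± 0.11, adjusted p = 0.0558 missed the threshold and passed in 9 of 24 other settings, of which 3 left out a library, control replicate 1 (0.0445), control replicate 2 (0.0313) and off-drug replicate 4 (0.0197). Sec24a starts 52 bases from Sar1b on chromosome 11, with the genes running in opposite directions (Sec24a start 51763634 on the minus strand, Sar1b start 51763687 on the plus strand). Sar1b was at 35.8 ± 3.64 CPM in control aortas, 33.6 ± 3.08 on drug and 30.3 ± 2.62 off drug, and its off-drug difference was -0.24 ± 0.08, adjusted p = 0.0758.

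Sar1a was at 216, 217, 244 and 238 CPM in control aortas, 229, 219, 232 and 221 on drug and 193, 206, 195 and 188 off drug. The off-drug libraries were below all others. Sar1a fell against control (-0.22 ± 0.06, adjusted p = 0.015) and against on drug (-0.20 ± 0.06, adjusted p = 0.0246). Apart from the minimum fold of 1.2, the other settings gave differences of -0.26 to -0.16 against control and -0.23 to -0.18 against on drug. Both calls were lost when any 1 of several libraries was left out. The first was lost on leaving out any 1 of control replicate 3 (0.0599), control replicate 4 (0.0549) and off-drug replicate 4 (0.056), and without composition factors (0.0953), and the second on leaving out any 1 of on-drug replicate 1 (0.0631), on-drug replicate 2 (0.0544), on-drug replicate 3 (0.0914), off-drug replicate 1 (0.0822), off-drug replicate 3 (0.0805) and off-drug replicate 4 (0.0992), and without composition factors (0.0657).

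**Figure D4:**
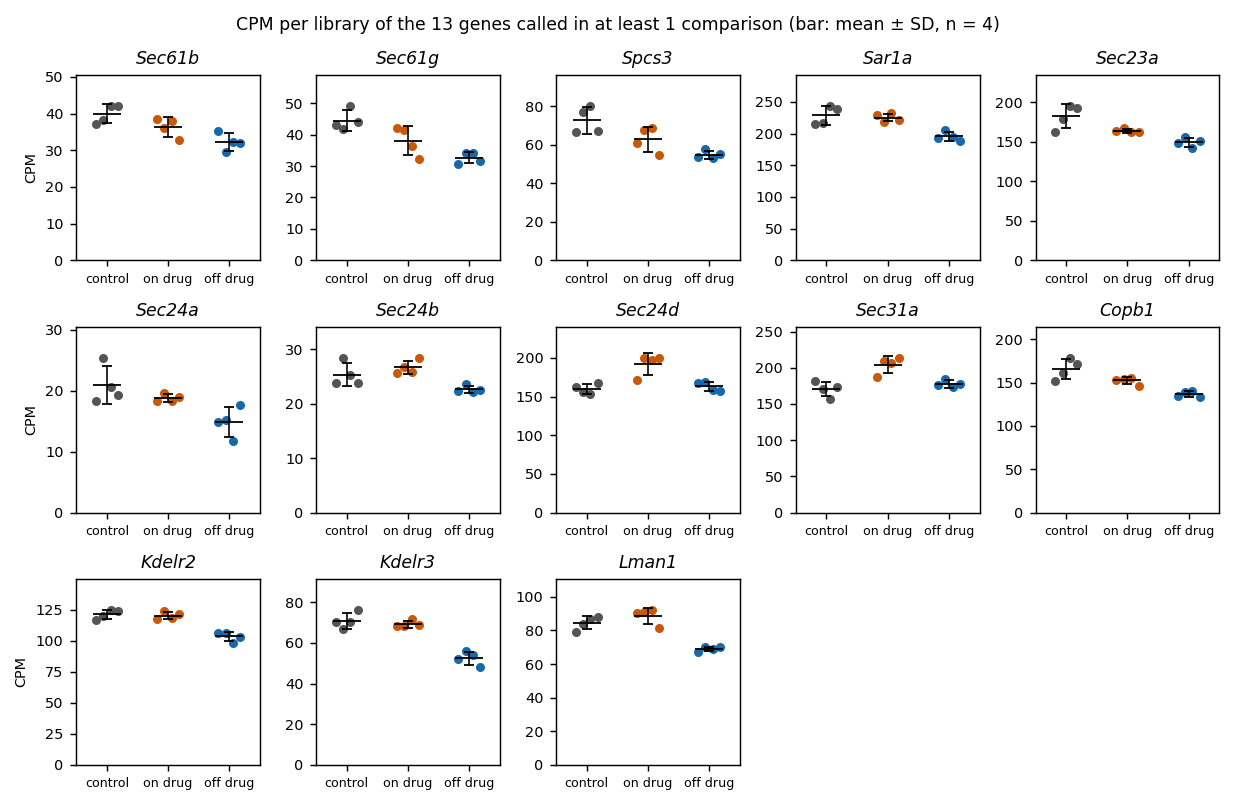
CPM in each library for the 13 genes called in at least 1 comparison, with the mean ± SD of the 4 libraries of each group. For Kdelr3, Kdelr2 and Lman1 the off-drug points lie below all others, for Sec24d and Sec31a the on-drug points lie above all others, and for Sec61g, Spcs3, Sec23a and Copb1 the on-drug mean lies between the other means.

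COPI is a coat of 7 subunits. Copb1, the beta subunit (ENSMUSG00000030754.9, chromosome 7, 114215559 to 114254711, minus strand), was the 1 subunit gene called. It was at 152, 161, 179 and 171 CPM in control aortas, 153, 154, 155 and 146 on drug and 134, 139, 140.2 and 133 off drug. Its off-drug values lay below all others, at a difference from controls of -0.28 ± 0.06, adjusted p = 0.00345 and from on drug of -0.16 ± 0.06, adjusted p = 0.0798. In the off-against-on comparison 6 of the 7 COPI genes had differences between -0.16 and -0.12, and 0 passed with edgeR. At an unadjusted p below 0.05 there were 6 (share of all genes not counted), and DESeq2 called 2. Copz1, the zeta subunit, had a difference of 0.04. Copa, the alpha subunit and the most abundant of them by CPM, was at 268, 272, 269 and 266 CPM in control aortas, 271, 307, 296 and 287 on drug and 272, 267, 248 and 251 off drug. The groups overlapped, and its difference off drug against on drug (-0.16 ± 0.06, adjusted p = 0.0678) passed in 5 of 24 other settings, among them without on-drug replicate 1 (0.0426). Summed over the 7 genes, COPI was at 965 ± 4.59 CPM in control aortas, 992 ± 30.2 on drug and 901 ± 22.1 off drug.

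KDEL receptors return chaperones that carry a KDEL tail from the Golgi to the ER. Kdelr3 (ENSMUSG00000010830.7, chromosome 15, 79516408 to 79527739, plus strand) was at 70.3, 66.8, 70.2 and 76.3 CPM in control aortas, 68.2, 68.4, 71.9 and 68.6 on drug and 51.9, 55.8, 53.9 and 48.2 off drug. On-drug values were within the range of the controls, and all off-drug values were lower than both. Its promoter stretch is among those shown above. Kdelr3 fell against control (-0.44 ± 0.06, adjusted p = 9.9e-05) and against on drug (-0.40 ± 0.06, adjusted p = 0.000159). Its fall against control passed in all 24 other settings, the minimum fold of 1.2 included (adjusted p = 0.0441). Kdelr2 (ENSMUSG00000079111.3, chromosome 5, 143403838 to 143421901, plus strand) was at 116, 120.1, 125 and 124 CPM in control aortas, 118, 124, 118 and 121 on drug and 106, 106, 98.5 and 103 off drug, again with the off-drug libraries below all others. Its differences were -0.23 ± 0.05, adjusted p = 0.00687 against control and -0.22 ± 0.05, adjusted p = 0.00842 against on drug. The first was lost without composition factors (0.068), and the second without off-drug replicate 3 (0.0511). Kdelr1 had positive differences from controls on drug (0.17 ± 0.06, adjusted p = 0.112) and off drug (0.12 ± 0.06, adjusted p = 0.271). Control replicate 1 stood apart with 53.6 CPM of Kdelr1, and the other controls lay between 44.7 and 45.5 CPM.

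Among cargo receptors, Lman1 (ERGIC-53, ENSMUSG00000041891.15, chromosome 18, 65980754 to 66022580, minus strand) carries glycoproteins such as clotting factors out of the ER with its partner Mcfd2. Lman1 was at 79.3, 84.1, 86.7 and 87.9 CPM in control aortas, 90.1, 91.0, 92.2 and 81.7 on drug and 67.0, 70.1, 69.0 and 69.9 off drug. The off-drug libraries lay below all other libraries. Lman1 fell against control (-0.29 ± 0.06, adjusted p = 0.00211) and against on drug (-0.36 ± 0.06, adjusted p = 0.000236). Mcfd2 had -0.10 ± 0.06, adjusted p = 0.271 against control and did not pass. Tmed2, the most abundant of the 44 by CPM, was at 305 ± 21.4 CPM in control aortas, 281 ± 2.48 on drug and 271 ± 8.25 off drug, and its off-drug difference of -0.17 ± 0.06, adjusted p = 0.0628 passed in 4 of 24 other settings, 1 of which left out a library, control replicate 1 (0.0266). Mia3 (TANGO1), which helps bulky procollagen leave the ER, was at 65.7 ± 0.895 CPM in control aortas, 70.5 ± 3.28 on drug and 68.1 ± 4.45 off drug, with differences from controls of 0.10 ± 0.06, adjusted p = 0.332 on drug and 0.05 ± 0.06, adjusted p = 0.641 off drug. Tmed10, another p24-family protein, differed by 0.15 ± 0.06, adjusted p = 0.172 on drug.

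Several of these proteins exist as paralogs, and the shares of each paralog in its family's CPM per kb describe the make-up of the family. Sec23a made up 87.7% ± 0.619 of the Sec23 family in controls, 86.7% ± 1.08 on drug and 86.0% ± 0.416 off drug, and Sec23b the rest. Sec23b itself differed by -0.06 ± 0.07, adjusted p = 0.618 off drug. In the Sec24 family, Sec24d led with 61.5% ± 2.18 in controls, 64.4% ± 1.12 on drug and 60.9% ± 0.906 off drug. Sec24c took 23.5% ± 2.51 in controls and 27.0% ± 0.546 off drug, and its own off-drug difference, 0.24 ± 0.08, adjusted p = 0.0634, was positive and passed in 4 of 24 other settings, 1 of which left out a library, control replicate 1 (0.00252). Sec24a was the smallest part, at 4.76% ± 0.774 in controls and 3.27% ± 0.512 off drug. Sec24b, the remaining adaptor, fell from 26.6 ± 1.25 CPM on drug to 22.6 ± 0.655 CPM off drug (-0.24 ± 0.07, adjusted p = 0.0303). That call was lost on leaving out any 1 of on-drug replicate 2 (0.0749), on-drug replicate 3 (0.0517), on-drug replicate 4 (0.101), off-drug replicate 1 (0.0783), off-drug replicate 3 (0.0847) and off-drug replicate 4 (0.0788), and without composition factors (0.108).

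In the Sar1 family Sar1a took 68.2% ± 1.76 in controls, 69.3% ± 2.15 on drug and 68.4% ± 2.23 off drug, and in the Sec11 family Sec11a took 60.3% ± 1.02, 60.2% ± 0.994 and 59.4% ± 1.23. Differences between these means were within 1 SD of a group. In the KDEL receptor family the share of Kdelr3 was 35.4% ± 1.10 in controls, 34.2% ± 0.813 on drug and 30.6% ± 1.16 off drug, and that of Kdelr1 17.8% ± 1.60, 19.9% ± 0.593 and 22.6% ± 0.697. Off-drug libraries did not overlap the controls for either gene. Kdelr3 held 29.3% to 31.6% off drug against 34.5% to 37.0% in controls, and Kdelr1 22.0% to 23.6% against 16.6% to 20.2%. Kdelr2 took 46.8% ± 1.54, 45.9% ± 0.942 and 46.8% ± 1.52. These shares were not tested.

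**Figure D5:**
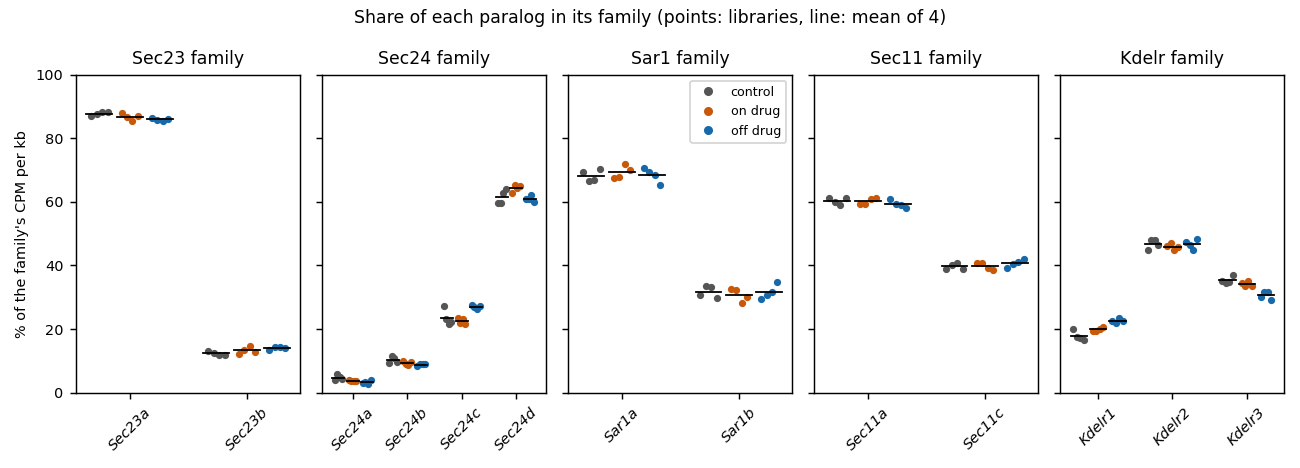
Share of each paralog in its family's CPM per kb, in percent, for each library (points) with the mean of the 4 libraries of a group (line). Sec23a and Sec24d dominate their families, and off drug the Kdelr3 share is lower and the Kdelr1 share higher than in the other groups.

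Other genes of the same steps were taken from a list. Of 105 further genes for targeting, glycosylation, ER exit, retrieval and tethering, all tested, 4 (3.81%) were called higher and 1 (0.952%) lower on drug, against 4.13% and 2.94% of all genes. Off drug against control 3 (2.86%) were higher and 20 (19%) lower, against 6.27% and 5.77% of all genes. Off drug against on drug 1 (0.952%) was higher and 18 (17.1%) lower, against 5.44% and 6.92%. Without composition factors 10 and 11 were lower in these. Without off-drug replicate 3 they were 13 and 11, and without on-drug replicate 3, 10 were lower off drug against on drug. On drug, the number higher was 2 if control replicate 3 was omitted, 2 if on-drug replicate 4 was, and 7 if on-drug replicate 1 was. Those lower were 5 without control replicate 1 and 2 with on-drug replicate 2 left out. The 3 higher off drug against control became 7 without control replicate 1, 1 without on-drug replicate 4, 1 without off-drug replicate 2, and 0 without any 1 of control replicates 2, 3 and 4, on-drug replicate 2 and off-drug replicates 1 and 3. The 1 higher off drug against on drug, Sil1, was lost without any 1 of on-drug replicates 1, 2, 3 and 4 and off-drug replicates 1, 2 and 3. Oligosaccharyltransferase, which attaches sugar chains at the translocon, had 6 of 12 genes lower off drug against control. The genes named next had the smallest adjusted p in each comparison. Hspa5 (BiP), the ER chaperone that pulls chains through Sec61, was at 472, 472, 621 and 559 CPM in control aortas, 419, 482, 443 and 342 on drug and 306, 317, 271 and 276 off drug, and fell off drug (-0.86 ± 0.11, adjusted p = 9.4e-05). All off-drug libraries were below all others for it. Ostc fell from 61.2 ± 4.62 to 44.9 ± 0.533 CPM (-0.45 ± 0.06, adjusted p = 0.000172) and Hyou1, a partner of BiP, from 110.2 ± 5.97 to 79.7 ± 3.79 CPM (-0.47 ± 0.08, adjusted p = 0.000471).

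On drug the calls outside the 44 genes were led by Ergic1, a protein that cycles between ER and Golgi, with 169 ± 23.0 CPM without drug and 246 ± 24.6 CPM on drug (0.54 ± 0.09, adjusted p = 0.00142). Off drug it was at 154 ± 6.53 CPM (-0.67 ± 0.09, adjusted p = 4.4e-05 against on drug). Creb3l2, a transcription factor known to act on COPII genes in cartilage, rose on drug from 54.5 ± 4.23 to 70.9 ± 6.43 CPM (0.38 ± 0.07, adjusted p = 0.00423), and Emc6, a subunit of a membrane insertase, fell from 28.5 ± 1.26 to 22.7 ± 0.574 CPM (-0.33 ± 0.07, adjusted p = 0.00733). Against on drug, the COPI regulator Arfgap3 (-0.37 ± 0.05, adjusted p = 9.7e-05) and the Golgi SNARE Stx5a (-0.40 ± 0.06, adjusted p = 0.000155) fell.

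Other measures differed between the groups. Differences on drug against control had a Spearman correlation of 0.302 with exon length across the 44 genes, against 0.176 for off drug against control and -0.166 for the third comparison. The 44 points share their libraries and are not independent. The shorter 22 genes had a median difference of -0.03 on drug and -0.15 off drug against control, and the longer 22 had 0.05 and -0.08. With each library's trend on exon length removed, 2 genes were higher and 1 lower on drug and 16 lower off drug against control. On drug, endothelial markers (8 genes) summed to 879 to 1012 CPM, against 700.2 to 794 CPM in controls. Called higher on drug were 2 of 8 endothelial, 2 of 8 smooth muscle, 2 of 8 macrophage and 1 of 8 fibroblast markers. In these lists 0 markers were lower on drug, and over all genes tested 4.13% were higher. Off drug against control 3 of 8 smooth muscle markers were higher and 0 lower, where 6.27% of all genes were higher. Against on drug 1 of the 8 was higher and 1 lower. Of all genes tested, 5.77% were called lower off drug than in controls. Relative to the on-drug group, 5.44% of all genes were higher off drug and 6.92% lower. The counts of lower markers given next can be read beside these shares. Off drug the endothelial sum was 631 to 821 CPM, below all on-drug libraries, with 4 of 8 called lower against on drug and 2 of 8 against control. Macrophage markers (8 genes) summed to 712 to 912 CPM in controls and 602 to 703 CPM off drug, with 3 of 8 called lower. Against on drug (748 to 928 CPM) 5 of 8 macrophage markers were lower. Off drug against control, erythroid markers (7 genes) summed to 4925 to 20566 CPM in controls and 2038 to 4801 CPM off drug, with 7 of 7 lower. Fibroblast markers summed to 3133 to 3775 CPM in control aortas, 3317 to 3622 on drug and 3168 to 3525 off drug, with 4 of 8 lower off drug against on drug. Markers of B and plasma cells, which are rich in this machinery, summed to 49.7 to 59.0 CPM in control aortas, 61.8 to 83.1 on drug and 53.7 to 61.0 off drug, and Mzb1 was at 0 in at least 1 on-drug library. The part of these cell types in the results was not tested. Reads over several genes were counted for each, and 13 of the 44 genes share between 1.97% and 17.9% of their exon bases with another annotated gene.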

How the data were processed

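RNA from 12 mouse aortas in 3 groups of 4 was sequenced. The authors deposited whole-number counts per gene for each library, which per the file headers came from featureCounts 1.4.6-p3 on paired reads, with reads of several positions and reads over several genes counted for each, duplicates ignored, no strand set and the GENCODE M13 annotation. STAR (index 2.5.3a, per the file headers) and GRCm38 are named in the submitters' processing notes. Duplicates ignored means that counts depend on how reads were marked, and shared reads can add to genes that overlap. The authors also deposited a table of log2 values of scaled counts, used here for symbols and coordinates. It was checked to equal log2(count / size factor + 1). The 44 genes and all lists were chosen with earlier results of these data known.

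Counts were fitted with edgeR 4.0.16 in R 4.3.3 (TMM factors, minimum count 10, minimum total 15, robust quasi-likelihood, 1 model of 3 groups, no covariate), two-sided, with Benjamini-Hochberg adjustment over 24660 genes of 50600. A call needed an adjusted p below 0.05. The SE is the log2 fold change divided by the square root of F. CPM used TMM-scaled library sizes, from totals of 41524501 to 109423243 counts per library. The script was tested on simulated data, for on drug against control. Of genes changed by a log2 size of 0.25, 5 of 68 were called. At 0.5 it was 45 of 66 and at 1 it was 66 of 66, with 4 false calls. Fewer genes were changed there than were called in the data, so the shares recovered in the data can differ. Alternatives were DESeq2 size factors, library size without composition factors, no filter, at least 1 CPM in 4 libraries, DESeq2 1.42.0, limma 3.58.1 with voom, only the groups compared, a non-robust fit, a replicate block, removal of the trend on exon length, a minimum fold of 1.2 and each library left out, and, chosen after seeing the data, control replicate 3 and on-drug replicate 1 left out together. For the other pathway genes, the settings beyond the scalings were also added after seeing the data. Named genes were all 44, with values per library for called ones and the one of smallest p per role, and the 3 other pathway genes of smallest adjusted p per comparison.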

Additional observations from a re-analysis of the deposited data

Results flagged for a closer look

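In 5 of 132 sets of 4 libraries (44 genes in 3 groups), 1 library stood further from the others than Dixon's 95% critical value for the gap over the range. Chance gives about 1 in 20 sets. Srp9 was highest in control replicate 2, at 45.2 CPM against 40.4 to 41.1 CPM in the other controls. Srp19 was lowest in on-drug replicate 3, at 5.03 CPM against 6.26 to 6.37 CPM. Sec24d was lowest in on-drug replicate 1, at 172 CPM against 198 to 200.4 CPM, and its call on drug had an adjusted p of 0.00342 without that library (edgeR). Kdelr1 was highest in control replicate 1, at 53.6 CPM against 44.7 to 45.5 CPM, and without that library its difference on drug had an adjusted p of 0.021 (edgeR). Kdelr3 was highest in on-drug replicate 3, at 71.9 CPM against 68.2 to 68.6 CPM, and its call off drug against on drug had an adjusted p of 0.00133 without it (edgeR).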

How the results depend on the processing

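In 24 alternatives, 0 of the called genes reversed direction, and Kdelr3 off drug against control kept its call in all of them. Without composition factors the median of the 44 genes was 0.0265 on drug and -0.0581 off drug against control. The medians of all genes were then 0.0403 and 0.0499. The number of the 44 called lower off drug against on drug was 4. The other pathway genes lower were 10 off drug against control and 11, with 0 higher, against on drug. DESeq2 gave 1 lower on drug and 16 lower off drug against control. Removing the trend on exon length gave 1 lower on drug and 16 lower off drug against control. The weighted limma fit gave 15 lower off drug against on drug and 1 higher off drug against control, as did no filter and the stricter filter (1 higher). A minimum fold of 1.2 left 0 higher on drug, 1 lower off drug against control and 0 lower in the third comparison. Of 9 calls named among the other pathway genes, 6 were lost under that minimum (Ergic1, Creb3l2 and Emc6 on drug, Hyou1 off drug against control, Arfgap3 and Stx5a off drug against on drug). The cause was not tested.

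Leaving out 1 library gave 0 to 3 higher and 0 to 2 lower on drug, 0 to 1 higher and 9 to 14 lower off drug against control, and 2 to 8 lower off drug against on drug. The medians ranged from -0.03 to 0.01, from -0.13 to -0.10 and from -0.13 to -0.11. Of the other pathway genes, 2 to 7 were higher and 1 to 5 lower on drug, 0 to 7 higher and 13 to 22 lower off drug against control, and 0 to 1 higher and 10 to 19 lower off drug against on drug. With control replicate 3 and on-drug replicate 1 both left out, 0 pathway genes were higher off drug against control, and in the third comparison 2 were higher and 20 lower.

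Replicate numbers did not pair the samples: over 12 same-numbered pairs, r was -0.08 to 0.07. With a replicate block, 2 genes were higher on drug, 10 lower off drug against control and 8 lower off drug against on drug.

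With 4 libraries a group, the number of libraries limits precision. How far depth limits it for single genes was not tested. Removing the trend on exon length turned the share of higher calls over all genes on drug from 58.4% to 46.7%.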

Other observations

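Oligosaccharyltransferase genes, which work beside Sec61, gave 6 calls of 12 (50%) off drug against control and all were lower, against 5.77% of all genes. Besides Ostc they were Rpn1, Stt3a, Ost4, Magt1 and Tmem258, with log2 fold changes between -0.40 and -0.19. Rpn1, Magt1 and Tmem258 kept the call in each of 12 omissions of 1 library. Stt3a lost it without off-drug replicate 4, and Ost4 in 10 of the 12 omissions. Among the 26 other genes of ER exit, 4 (15.4%) were lower off drug against control, against 5.77% of all genes. They were Sec22b, a SNARE of ER to Golgi transport, Ergic2, Lman2l, a relative of Lman1, and Tmed3, with log2 fold changes between -0.51 and -0.26. Tmed3 lost the call without control replicate 3, off-drug replicate 3 or off-drug replicate 4, and the other 3 kept it in the 12 omissions. Without composition factors the calls of Stt3a, Ost4, Ergic2 and Tmed3 were lost.

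Among the 27 tethers and SNAREs, 2 (7.41%) rose on drug, against 4.13% of all genes. The share was close to this, at 7.08%, among the 11900 genes above the floor of 2.51 in mean log2 CPM. That set was not matched to this list. Off drug against control, 2 of the 27 (7.41%) were higher and 2 (7.41%) lower. The 2 that rose on drug were Golga2 and Golgb1, proteins of the Golgi matrix, with log2 fold changes of 0.30 and 0.27. Golga2 lost the call without any 1 of control replicates 2, 3 and 4 and on-drug replicates 3 and 4, and Golgb1 without control replicate 3, on-drug replicate 2 or on-drug replicate 4. Golgb1 fell off drug against on drug (log2 fold change -0.35), and that call held in the 12 omissions. Calls had an adjusted p below 0.05 with edgeR. The minimum fold of 1.2 ended each of these calls other than that of Ostc, and the genes were named after their values were seen.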
